A study of Mus musculus with 12 samples.

Results

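Malat1 is a long noncoding RNA that stays in the nucleus, where it is held in nuclear speckles, the bodies that store splicing factors. RNA of this kind is kept from export by several routes: tethering to chromatin, retention in speckles, or introns that are left unspliced. Coding RNAs with detained introns share this behaviour, while messages for ribosomal proteins and respiratory chain subunits are short, stable and mostly cytoplasmic. The 12 RNA-seq libraries of mouse ventral hippocampus were ranked by their Malat1 level, and the 4 highest were set against the 4 lowest, so 8 of the 12 libraries entered the comparison. The members were chosen by the measured Malat1 value itself. Counts were summed over the transcripts of each gene symbol and scaled to the library total as CPM, the usual depth-corrected unit of RNA-seq counts.

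The mice were wild-type male C57BL/6J animals, 8 weeks old when naive, with 3 mice in each of 4 groups. Group C had no treatment. Group SS had been restrained for 2 hours a day over 14 days, was classed as stress-susceptible and stayed sedentary. Groups SES and SER had the same restraint and the same classification and then ran voluntarily on a wheel, and were classed by behaviour as effective (SES) and ineffective (SER) responders to running. The running time is 14 days in the sample titles and 4 weeks in the protocol text. Libraries are named here by group and mouse number, and each is 1 mouse. All were made from 1.3 µg of Trizol-extracted total RNA with a strand-keeping kit.

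Malat1 lies on chromosome 19 from 5795690 to 5802672 (GRCm38.p6, the RefSeq form of mm10) and is a single-exon transcript of 6983 bases. Its level ran from 262 CPM to 5425 CPM, a 20.7-fold range. The 4 lowest libraries were C 8 at 262 CPM, C 12 at 484 CPM, SS 18 at 489.5 CPM and C 2 at 509 CPM. The 4 highest were SER 19 at 1434 CPM, SES 12 at 1959.6 CPM, SS 19 at 3906 CPM and SS 21 at 5425 CPM. Between them lay SER 20 at 971 CPM, SES 9 at 1080.1 CPM, SES 10 at 1384 CPM and SER 6 at 1395 CPM. The step at the lower edge was wide, from 509 to 971 CPM, and the step at the upper edge was narrow, from 1395 to 1434 CPM. SES 10 and SER 6, just outside the high set, were therefore close to its lowest member.

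Because a measured value chose the libraries, every difference between the sets below is a description without a test. The low set holds all 3 mice of group C, and the high set holds none, so high Malat1 and exposure to stress cannot be told apart in the C libraries. Only group SS has mice in both sets, with SS 19 and SS 21 high and SS 18 low. SS 19 and SS 21 also stood apart from the other libraries, so the main counts are given with and without them. In the study's own contrast of SS against C, Malat1 was higher by 2.92 on the log2 scale (SE 0.59, edgeR quasi-likelihood test, adjusted p = 0.0223). The call was lost with edgeR without C 8 (adjusted p = 0.0920), without C 12 (0.0609), without SS 19 (0.124), without SS 21 (0.0851) and in the fit of the 2 groups alone (0.105). Over all genes edgeR called 757 higher (5.21%) and 673 lower (4.63%) in SS against C, 1430 of 14541 in all (9.83%). That total was 0 without C 8, without SS 19, without SS 21 and in the fit of the 2 groups alone, 78 without C 12, 848 without C 2 and 3797 without SS 18. Every gene called in SS against C below comes from the fit of all 12 libraries and shares this limit. That contrast shares 6 libraries with the ranking, namely SS 18, SS 19 and SS 21 and the 3 C libraries, and it is no independent support for it. With edgeR, Malat1 differed by -1.11 in SES against SS (SE 0.55, adjusted p = 0.564), where 0 genes were called (0.0%), and by -1.30 in SER against SS (SE 0.56, adjusted p = 0.239), where 7 were called (0.0481%). Without SS 18 both were called, at -1.61 with an edgeR adjusted p of 0.0032 in SES against SS and at -1.80 with 0.000766 in SER against SS, among 1283 and 2434 genes called. DESeq2 called 13 genes in SES against SS and 538 in SER against SS with all libraries. SES against SER gave 0.20 (SE 0.55, adjusted p = 1.00), with 4 genes called (0.0275%).

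Library totals ran from 9323607 to 15707516 counts, and 1 count was worth 0.0637 to 0.107 CPM. The tissue label was matched by hippocampal markers in every library: Prox1, a factor of dentate granule cells, ran from 27.9 to 51.8 CPM, and Wfs1, a marker of CA1 pyramidal cells, from 39.3 to 148 CPM. Markers of neighbouring tissue were uneven. Ttr, the main secreted protein of the choroid plexus, stood at 4939 CPM in SS 18 and 3573 CPM in C 2 of the low set, against 2.78 CPM in C 8 and 19.9 CPM in C 12. In the high set it was 1052 CPM in SER 19, 2451 CPM in SES 12, 5.95 CPM in SS 19 and 12.4 CPM in SS 21. Ttr was therefore high and low within both sets. The SER tables also differ from the rest in 4 genes, Lars2, Zc3h7a, Cmss1 and Filip1l, which are listed at 0 in all 3 SER libraries and above 0 in the other 9. Lars2, a mitochondrial leucyl-tRNA synthetase gene, ran from 4608 to 26880 CPM elsewhere. They were the 4 genes called in SES against SER and 4 of the 7 called in SER against SS, and whether the SER files were made differently was not tested. None of the 4 was among the genes counted between the sets, but Lars2 was counted lower when SES 12 was left out, which puts 2 SER libraries in the high set.

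Some coding genes had a higher mean share of noncoding isoforms in the high set. Sequences from 3 such genes are printed here, of which only Srsf7 had a share that did not overlap between the sets. Each line shows the last 30 bases shared with a coding isoform of the gene in lower case and the first 60 bases found only in the noncoding isoform in capitals. They are from GENCODE M21 transcripts on GRCm38, all on the minus strand, and all 3 were chosen after their values were seen. In Snrnp70 and Chkb the annotation calls the isoform a retained intron, and in Srsf7 a nonsense-mediated decay transcript.
Snrnp70 NR_126539, stretch chr7:45380819-45383184: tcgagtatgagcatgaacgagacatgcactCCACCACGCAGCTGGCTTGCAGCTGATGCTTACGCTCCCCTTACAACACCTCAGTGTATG
Srsf7 NR_036615, stretch chr17:80204622-80205081: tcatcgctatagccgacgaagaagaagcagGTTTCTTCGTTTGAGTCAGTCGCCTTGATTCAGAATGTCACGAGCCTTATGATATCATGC
Chkb NR_037153, stretch chr15:89429158-89429376: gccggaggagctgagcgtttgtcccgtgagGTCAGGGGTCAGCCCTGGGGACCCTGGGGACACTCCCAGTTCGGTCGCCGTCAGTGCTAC

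Across genes, a small group followed Malat1 and a smaller one ran against it. A gene was counted when the 2 sets of 4 libraries did not overlap and the set means of log2(CPM + 1) differed by at least 1. Of 14541 genes with enough counts, 82 were counted higher in the high set (0.564%) and 21 lower (0.144%), and the median difference over all genes was 0.02 on the log2 scale. Malat1, whose place the ranking fixed, is 1 of the 82. Noncoding genes made up 19 of the 82, Malat1 included, which is 2.90% of the 655 noncoding genes, against 0.454% of the 13886 coding genes. A gene was taken as coding if any of its RefSeq identifiers began with NM. Snhg11, a long noncoding RNA listed only under such an identifier, is therefore among the coding genes in this count. All 21 genes counted lower were coding. Without the size condition, 981 genes were apart and higher (6.75%) and 798 apart and lower (5.49%). Counts of apart genes in the lists below stand against these shares, so 1 apart gene in a short list is no result about that list.

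The 2 directions were built differently over the libraries. For the 82 higher genes, SS 19 and SS 21 lay a median of 1.85 above the low set on the log2 scale, the other 2 high libraries 0.72 and the 4 middle libraries 0.62. SS 19 and SS 21 were the 2 highest of all 12 libraries for 74 of the 82. For the 21 lower genes, SS 19 and SS 21 lay at a median of -1.17, SER 19 and SES 12 at -1.19 and the middle libraries at -0.59. SS 19 and SS 21 were the 2 lowest libraries for 8 of the 21. The mean of the middle libraries fell between the set means for 79 of the 82 and 21 of the 21. Without SS 19 and SS 21, the 4 highest of the other 10 gave 22 genes higher, 18 of them among the 82, and 7 lower, 5 of them among the 21. In the 9 stress-exposed libraries alone the counts were 4 higher and 4 lower. Those 4 higher genes were Malat1, Erdr1, Gpr101 and Tmem132e, and the lower were Ermn, Mobp, Hba-a1 and Hbb-b1. Without C 2 and SS 18 the counts were 9 higher and 6 lower. Both of these alternatives, like the one without SS 19 and SS 21, were chosen after seeing the data. Leaving out single libraries also moved the higher count, to 52 without C 8, 53 without C 12, 49 without SS 18, 34 without SS 19 and 33 without SS 21. The lower count was 11 without C 12, 8 without C 2, 8 without SER 19, 9 without SES 12 (8 of them other than Lars2), 8 without SS 19 and 10 without SS 21.

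Long noncoding RNAs kept in the nucleus made up 5 of the 14 largest higher differences named beside Malat1. Of 32 listed, 26 were in the files and 22 had enough counts: 6 were counted higher, 7 were apart and higher, and 1, Sox2ot, was apart and lower. The list median was 0.33 on the log2 scale against 0.02 over all genes, with 15 of 22 members positive. These counts include Malat1, which the ranking put there. Without it 5 of 21 were counted higher, 6 were apart and higher, 14 were positive and the median was 0.30. Over all genes 0.564% were counted higher and 6.75% were apart and higher. Airn, Tsix, Nespas and 2610307P16Rik had too few counts for comparison. In SS against C, edgeR at an adjusted p under 0.05 called 6 of the 21 higher, against 5.21% of all genes, and 1, Pantr1, lower, against 4.63%.

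Miat, a nuclear RNA that binds splicing factors, was higher in all 4 libraries of the high set. It stood at 41.4 CPM in C 8, 49.0 CPM in C 12, 41.1 CPM in SS 18 and 61.2 CPM in C 2, and at 91.0 CPM in SER 19, 153 CPM in SES 12, 684 CPM in SS 19 and 629 CPM in SS 21. The sets did not overlap and differed by 2.53 on the log2 scale. The middle libraries, at 74.1 to 181 CPM, all lay above the low set, and SES 9, SES 10 and SER 6 lay above SER 19. Without SS 19 and SS 21 the difference was 1.47, and in the 9 stress-exposed libraries it was 1.54.

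Meg3, the maternally expressed noncoding RNA of the imprinted Dlk1 to Dio3 region on chromosome 12 (109540996 to 109571729), differed widely among the SS mice. Its low-set values were 338 CPM in C 8, 319.7 CPM in C 12, 232 CPM in SS 18 and 445 CPM in C 2. The high-set values were 497 CPM in SER 19, 684 CPM in SES 12, 3799 CPM in SS 19 and 3831 CPM in SS 21. The sets were apart by 2.20 on the log2 scale, and SER 19 exceeded C 2 only narrowly. SES 10, a middle library by Malat1, had more Meg3 than SES 12, at 1161 CPM. The split among its 3 transcripts moved as well: NR_027651 held 7.18% to 19.0% of the estimated Meg3 counts in the low set and 30.2% to 47.3% in the high set. In the middle libraries it held 34.0% to 44.7%, all above SER 19 at 30.2%.

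Snhg11, a long noncoding RNA that also hosts a small nucleolar RNA, gave 177 CPM in C 8, 204 CPM in C 12, 130.2 CPM in SS 18 and 274 CPM in C 2. It gave 303 CPM in SER 19, 381 CPM in SES 12, 1816 CPM in SS 19 and 1820.3 CPM in SS 21, a difference of 2.05 on the log2 scale. SES 10 was again out of Malat1 order, at 757 CPM. Firre, an X-linked RNA that anchors chromatin at the nuclear matrix, differed by 1.81, with 9.83 to 17.3 CPM in the low set and 19.7 to 87.4 CPM in the high set. Kcnq1ot1, the unspliced antisense RNA of an imprinted domain, differed by 1.70, with 11.1 to 18.1 CPM against 25.3 to 95.2 CPM. Ftx, from the X inactivation centre, had a difference of 1.68, but SER 19 at 13.9 CPM fell below C 2 at 14.2 CPM, so its sets overlapped.

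Other nuclear RNAs differed less, and among them only Snhg14, higher, and Sox2ot, lower, had sets apart. Neat1, the scaffold of paraspeckles and the neighbour of Malat1 on chromosome 19, stood at 27.3 to 53.8 CPM in the low set. In the high set it was 30.8 CPM in SER 19, 65.5 CPM in SES 12, 81.9 CPM in SS 19 and 109.7 CPM in SS 21, so the sets overlapped through SER 19. Rian, from the same imprinted region as Meg3, overlapped between sets, at 290.1 to 457 CPM in the low set and 391 to 537 CPM in the high set. Differences on the log2 scale were 0.68 for Neat1, 0.24 for Rian, -0.15 for Tug1 and -0.13 for Peg13. Sox2ot, the RNA that overlaps the Sox2 locus, ran the other way, at 26.6 to 35.7 CPM in the low set and 15.6 to 22.3 CPM in the high set. Mirg, Snhg14, Pvt1, Rmst, Pantr1, Dlx6os1, Jpx, Xist, Six3os1 and C130071C03Rik differed by -0.30 to 0.62. Snhg14 was apart, at 15.3 to 17.4 CPM against 17.9 to 23.6 CPM, with SS 19 and SS 21 the lowest of the high set.

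**Figure D1:**
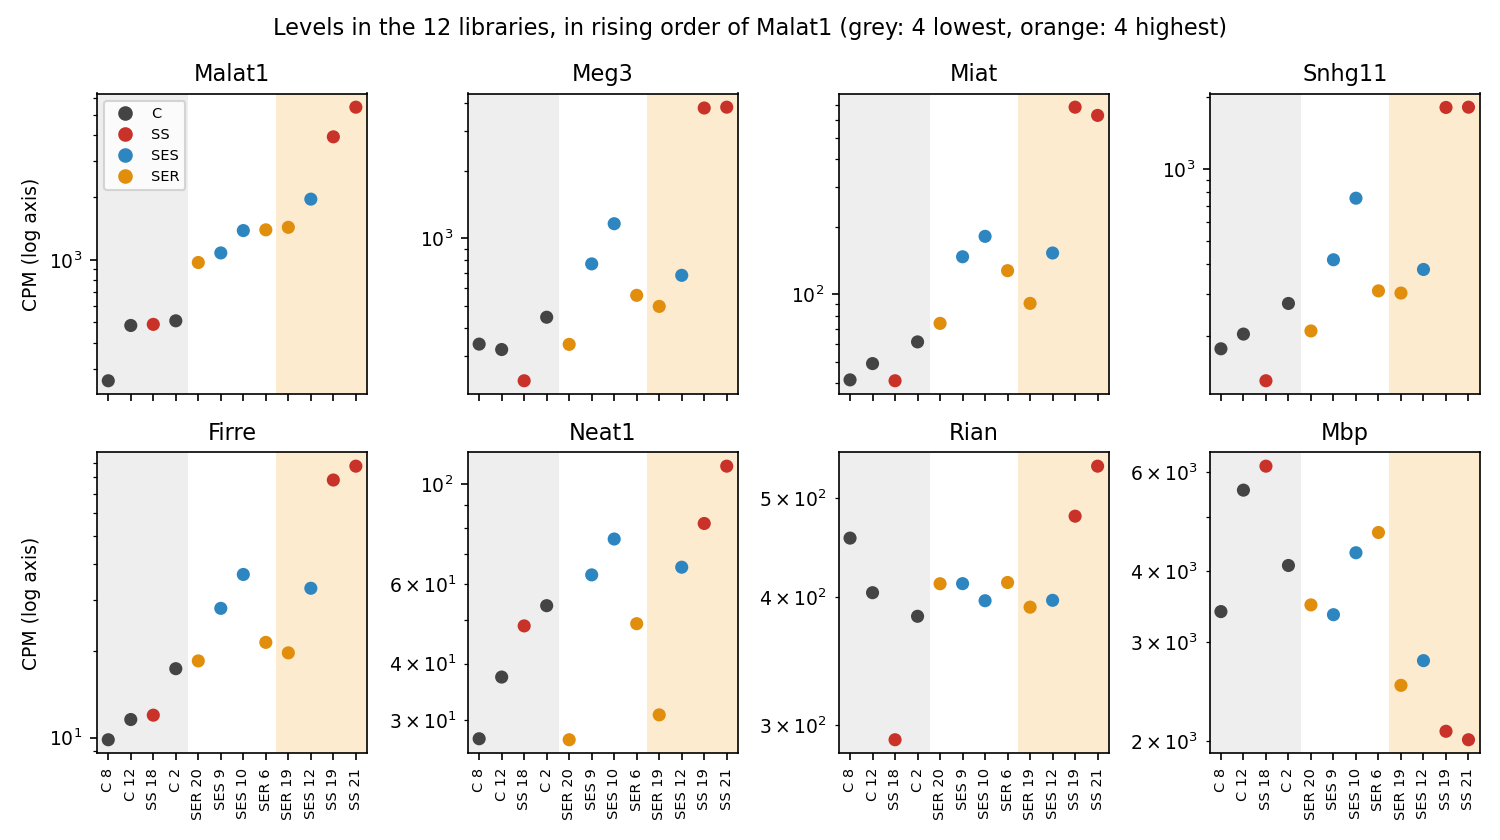
CPM (log axis) of Malat1, 6 other noncoding RNAs and the myelin gene Mbp in the 12 libraries, ordered by Malat1 and coloured by group; each point is 1 mouse. Meg3, Miat, Snhg11 and Firre are highest in SS 19 and SS 21, Neat1 and Rian overlap between the shaded sets, and Mbp is at or below 2779 CPM in the 4 highest.

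Exported and small nucleolar RNA host transcripts served as noncoding RNAs of another kind. Of 15 members with enough counts, none was counted and none was apart in either direction, and their median difference was 0.02. Snhg11, also a host transcript and counted higher at 2.05, was placed with the nuclear RNAs, as was Snhg14, apart and higher at 0.30. The lists were written with earlier results known, so the absence of counted genes here depends on that placement. Snhg20 had the largest difference, 0.72, with 4.98 to 7.39 CPM in the low set and 6.36 to 19.2 CPM in the high set. Bc1, a short RNA carried into dendrites, differed by -0.54 with overlapping sets.

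Coding genes known for nuclear transcripts with detained introns lay above the genome median as a list. Their median was 0.51 over 30 members, 28 of them positive. Of the 30, 3 were counted higher (Nktr, Srrm2 and Ccnl2), against 0.564% of all genes. Apart and higher were 6, against 6.75% of all genes, and 1, Tra2b, was apart and lower. Nktr, a cyclophilin-related protein, gave 42.6 CPM in C 8, 37.7 CPM in C 12, 42.5 CPM in SS 18 and 39.6 CPM in C 2. It gave 44.2 CPM in SER 19, 69.1 CPM in SES 12, 145 CPM in SS 19 and 159 CPM in SS 21, a difference of 1.16. Srrm2, a structural protein of nuclear speckles, differed by 1.13, with 151 to 196 CPM in the low set and 218 to 625 CPM in the high set. Ccnl2, a cyclin found in speckles, differed by 1.06. The list rested on SS 19 and SS 21, whose medians over the low set were 0.81 and 0.91, while SER 19 was at -0.05 and SES 12 at 0.12. Without SS 19 and SS 21 the list median was 0.09. In SS against C, edgeR called 6 of the 30 higher, against 5.21% of all genes, and none lower.

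Splicing proteins had no common direction. The SR and hnRNP list had a median of 0.02 over 23 members, with 12 positive, 1 apart and higher and 1 apart and lower. Srsf3, an SR protein, differed by -0.35, with 171 to 225 CPM in the low set and 152 to 172 CPM in the high set, so its sets overlapped only at SS 18 and SS 21.

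Enzymes that modify chromatin, together with Mediator subunits, had the most even direction of the lists that lay higher. All 33 members were positive, with a median of 0.38, and 16 were apart and higher, although none reached the size needed to be counted. Kmt2a, a histone methyltransferase, stood at 73.6 to 102.5 CPM in the low set and 113 to 216 CPM in the high set. Kmt2d, another of that family, stood at 66.5 to 84.5 CPM and 90.3 to 195 CPM. Med12, a Mediator subunit, differed by 1.08 but overlapped because SER 19 had 13.4 CPM and SS 18 had 19.7 CPM. In the 9 stress-exposed libraries alone the list median was 0.20.

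Further single genes completed the higher side. Ipw, an imprinted noncoding RNA of the Prader-Willi region, differed by 2.60, from 5.10 to 9.52 CPM in the low set to 19.3 to 96.6 CPM in the high set. Leng8 differed by 2.27, with 16.1 to 27.5 CPM against 33.8 to 246 CPM. Col6a1, a collagen VI chain, differed by 2.49, with 2.74 to 6.88 CPM against 11.5 to 72.8 CPM. Rreb1, a zinc-finger transcription factor, differed by 1.98, Zbed6 by 1.76 and Trank1 by 1.69. Ryr1, a calcium release channel, differed by 1.83, with 3.73 to 5.35 CPM in the low set and 8.12 to 40.6 CPM in the high set. Tmem181b-ps, a pseudogene that may share reads with its parent, differed by 1.71, and Rnpc3, a protein of the minor spliceosome, by 1.56. In the high set, SS 19 and SS 21 were the 2 upper values for each of these 9 genes. The 15 largest higher genes were all called higher in SS against C by edgeR, with adjusted p from 0.0223 to 0.0492, and of the 82 as a whole 61 rose and none fell there. The SS against C contrast shares libraries with the sets, so nothing is read from that count.

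Trh, the precursor of thyrotropin-releasing hormone, had the largest difference of any counted gene, 3.36, at low levels. It was 0.855 CPM in C 8, 0.0849 CPM in C 12, 1.27 CPM in SS 18 and 1.04 CPM in C 2, against 10.5 CPM in SER 19, 13.8 CPM in SES 12, 23.4 CPM in SS 19 and 23.5 CPM in SS 21. The middle libraries were split, with SES 9 at 12.4 CPM and SER 6 at 12.7 CPM and the other two below 1 CPM. Trh was named after its values were seen.

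Transcript length, exon number and GC content moved with the difference. A GENCODE M21 transcript was matched through its RefSeq ID to 98.9% of the genes, which were then cut into 5 equal bins. The median difference went from -0.11 in the bin of shortest transcripts to 0.15 in the longest, from -0.04 in the bin of fewest exons to 0.19 in that of most exons, and from -0.08 in the lowest GC bin to 0.10 in the highest. The exon series was not steady, since its lowest value, -0.07, was in the second bin. Genes counted higher had a median length of 4704 bases and 15 exons, against 1922 bases and 6 exons for those counted lower and 2989 bases and 9 exons for all genes. The longest bin held 37 of the higher genes and none of the lower. The part of length, exons and GC in the results for the lists was not tested.

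**Figure D2:**
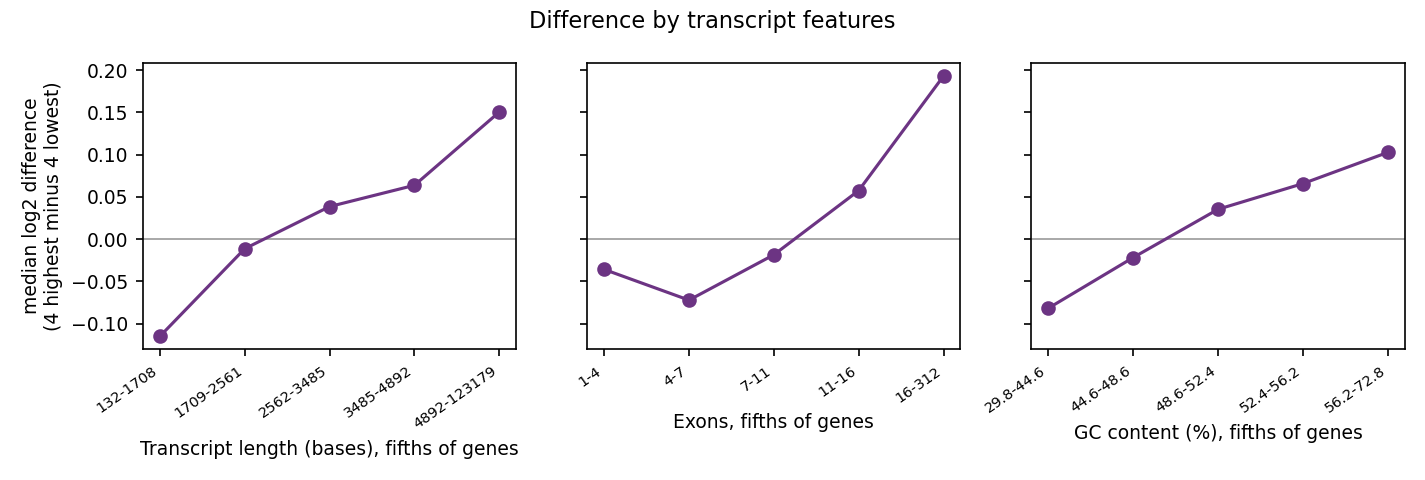
Median difference in log2(CPM + 1) between the 4 highest and 4 lowest libraries, for genes in 5 equal bins of transcript length, exon number and GC content. It rises from -0.11 to 0.15 over length and from -0.08 to 0.10 over GC content, and is 0.19 in the bin with most exons.

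The share of noncoding isoforms within coding genes moved little over all genes and much in a few, in both directions. Among 558 coding genes with both coding and noncoding RefSeq rows, 392 had at least 50 counts in every library. The median change in the within-gene share of noncoding isoforms, high set minus low set, was 0.27 percentage points, with 215 positive, 162 negative and 15 at zero change. Without SS 19 and SS 21 the median change was 0.0054 points, with 197 positive and 181 negative. The share was apart and higher in 10 genes (2.55%) and apart and lower in 2 (0.51%). These counts moved with the libraries, to 16 and 6 without SER 19, 6 and 4 without SS 18, 11 and 4 without SS 19 and SS 21, and 42 and 13 with 3 libraries in each set, and the lower count was 1 without C 2. The isoform counts are estimates in which reads of 1 gene are divided among its transcripts, and some genes jumped between extremes: Nol8 ran from 0% to 96.0% within the low set. The largest change in size was a fall, -31.3 points in Nol8, and Alg11 changed by -28.6 points, both with overlapping sets. The genes described singly below all had a higher mean share in the high set.

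Snrnp70, the U1 snRNP protein that recognises 5′ splice sites, had 838 to 4392 estimated counts in each library. Its noncoding share was 21.9% in C 8, 30.9% in C 12, 18.3% in SS 18 and 40.2% in C 2. It was 36.8% in SER 19, 48.4% in SES 12, 67.9% in SS 19 and 70.8% in SS 21, so the sets overlapped only through C 2 and SER 19. The retained-intron transcript printed above carried nearly all of it: NR_126539 had 181 to 433 estimated counts in the low set and 456 to 3048 in the high set, while the coding transcript had 658 to 865 and 803 to 1361. The gene's total differed by 1.18 on the log2 scale and was counted higher.

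Srsf7, an SR protein whose decay isoform is part of its self-regulation, kept its total while its noncoding share was apart. The total was 63.6 to 96.1 CPM in the low set and 67.9 to 107.9 CPM in the high set, a difference of 0.06. The share was 8.01% in C 8, 3.69% in C 12, 7.70% in SS 18 and 8.38% in C 2, against 17.02% in SER 19, 15.5% in SES 12, 29.4% in SS 19 and 31.3% in SS 21. The middle libraries, at 12.0% to 19.4%, all lay above the low set.

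Bmp1, a protease that processes procollagens, had a share of 25.3% in C 8, 32.6% in C 12, 21.1% in SS 18 and 29.2% in C 2. The share was 35.9% in SER 19, 53.4% in SES 12, 67.2% in SS 19 and 68.0% in SS 21, and the sets were apart. NR_033241 rested on 34 to 56 estimated counts in the low set and 65 to 593 in the high set. Chkb, a choline kinase, overlapped: 10.98% to 32.1% in the low set, and 46.7% in SER 19, 28.6% in SES 12, 58.5% in SS 19 and 57.5% in SS 21. SER 6, a middle library, had the highest share, 61.8%. These Chkb shares combine 2 noncoding transcripts, NR_037153, printed above, and NR_037154. NR_037153 alone held 0% to 24.4% in the low set, and 23.6% in SER 19, 16.1% in SES 12, 47.8% in SS 19 and 50.7% in SS 21. Clk1, a kinase that phosphorylates SR proteins, has 2 noncoding transcripts in the files that ran differently. NR_027854 held 18.2% to 33.1% of the Clk1 counts in the low set, 54.8% to 61.8% in the middle libraries and 66.6% to 69.2% in the high set. NR_027853 held 44.3% in C 8, 18.1% in C 12, 0% in SS 18 and 58.3% in C 2, against 9.16% to 18.4% in the high set. Their combined share overlapped, at 30.4% to 81.4% in the low set and 76.1% to 85.3% in the high set, because C 2 lay above SER 19, SES 12 and SS 19. The other genes whose share was apart and higher were Fcho1, Fance, Akap8, Porcn, Afg3l1, Hspa14, Fbxl4 and Stk11, and those apart and lower were Sh3kbp1 and 2010111I01Rik. Of these, Akap8, a nuclear anchoring protein, went from 2.86% to 11.6% in the low set to 14.5% to 37.9% in the high set. All but Bmp1 of the genes apart, together with Srsf7, were named after their values were seen.

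**Figure D3:**
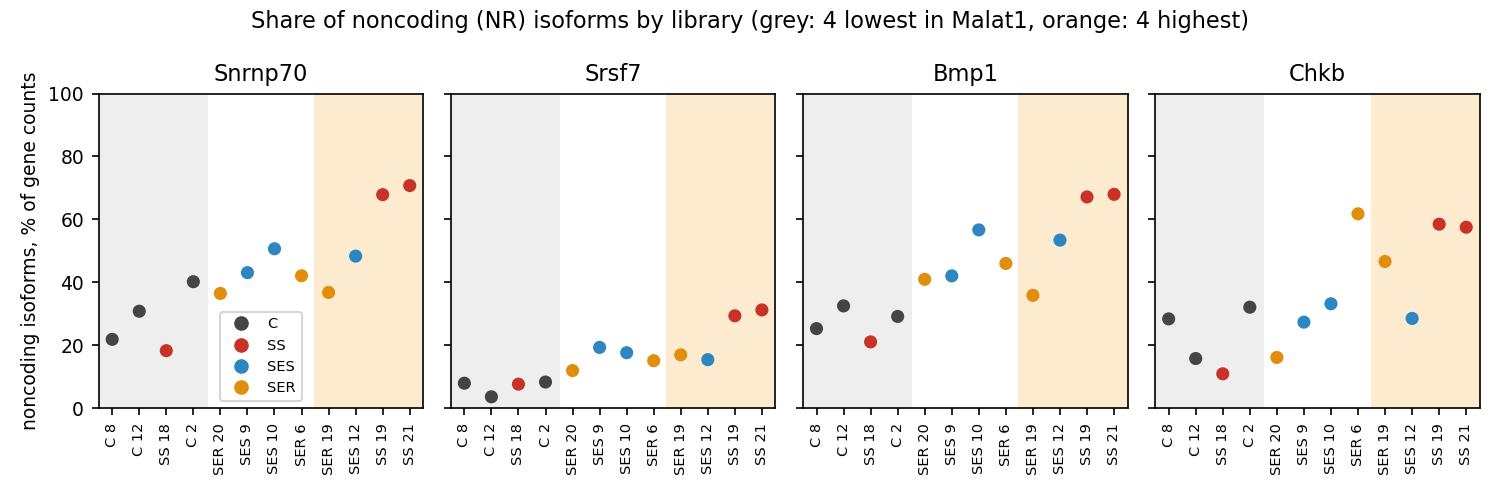
Noncoding isoforms as a percentage of each gene's estimated counts for Snrnp70, Srsf7, Bmp1 and Chkb in the 12 libraries, ordered by Malat1; each point is 1 mouse. SS 19 and SS 21 are the highest 2 libraries for Snrnp70, Srsf7 and Bmp1, and the sets overlap for Snrnp70 and Chkb.

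Genes of myelinating oligodendrocytes, the glia that wrap axons, were the main group on the lower side. All 14 markers were negative, with a median of -1.03, 8 were counted lower and 12 were apart and lower. Over all genes 0.144% were counted lower and 5.49% were apart and lower. The list was uneven within the low set. Its median over the mean of that set was -0.50 in C 8, 0.13 in C 12, 0.23 in SS 18 and 0.11 in C 2. The middle libraries ran from -0.57 in SER 20 to -0.06 in SER 6, and the high set from -0.90 in SER 19 to -1.16 in SS 21. C 8, the lowest in Malat1, was thus within the range of the middle libraries. In bulk tissue, fewer cells of a type and less RNA per cell cannot be told apart. Mbp, the myelin basic protein, stood at 3395 CPM in C 8, 5571 CPM in C 12, 6143 CPM in SS 18 and 4097 CPM in C 2. It stood at 2513 CPM in SER 19, 2779 CPM in SES 12, 2083 CPM in SS 19 and 2013 CPM in SS 21, a difference of -1.01. The sets did not overlap, and the middle libraries, at 3352 to 4687 CPM, lay above the high set and within or just under the range of the low set.

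Other myelin and oligodendrocyte genes ran in parallel. Differences were -1.32 for Aspa, which breaks down N-acetylaspartate, -1.29 for Ermn, a cytoskeletal myelin protein, -1.28 for Opalin, a transmembrane protein of oligodendrocytes, and -1.25 for Ugt8a, which makes galactocerebroside. Mog, a protein of the outer myelin surface, differed by -1.05, and Gjb1, a gap junction protein, by -1.11. Lpar1, a lysophosphatidic acid receptor, had the largest negative difference among the genes named by size, -1.38, with 44.4 to 68.7 CPM against 18.9 to 23.7 CPM. Bcas1 differed by -1.23, Prr18 by -1.23 and Tmem88b by -1.09. In SS against C, edgeR called only Opalin lower among the 14 markers, at -1.01 (SE 0.24, adjusted p = 0.0285), while Mbp was at -0.35 (SE 0.39, adjusted p = 0.599). Without SS 19 and SS 21 the list median was -0.58, and in the 9 stress-exposed libraries alone it was -0.78. Precursor markers were mixed, with a median of 0.21 over 8 and 6 positive. Pdgfra, the receptor that defines precursors, differed by 0.38 with overlapping sets. Olig1, a factor of the whole oligodendrocyte lineage, was apart and lower at -0.40, and Olig2, its relative, differed by -0.21 with overlapping sets.

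Markers of other neighbouring tissue were uneven within the low set, and their part in the result was not tested. The summed level of 14 choroid plexus markers was 140 to 6535 CPM in the low set and 99.9 to 3008 CPM in the high set, with none of the 14 apart. Folr1, a folate receptor of that epithelium, was at 0 in C 8 and SS 21. The summed level of 10 thalamic markers was 235 to 471 CPM in the low set and 219 to 246 CPM in the high set, with 1 of 10 apart. That gene, Slc17a6, a vesicular glutamate transporter of thalamic neurons, was counted lower at -1.17, with 24.6 to 53.5 CPM against 14.3 to 22.4 CPM. Prkcd, another thalamic marker, had 84.7 CPM in C 2 and 57.4 CPM in SS 18 but 8.62 CPM in C 8 and 17.2 CPM in C 12. Tnnt1, a troponin gene counted lower and named after its values were seen, followed that pattern, at 23.7 CPM in C 2 and 19.9 CPM in SS 18 against 2.07 CPM in C 8 and 2.29 CPM in C 12. Without C 2 and SS 18 the oligodendrocyte median was -0.73. The summed level of the 14 oligodendrocyte markers was 6224 to 11215 CPM in the low set and 3771 to 4836 CPM in the high set.

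Short, abundant household transcripts lay slightly lower. Of 75 cytosolic ribosomal protein genes, 74 were negative with a median of -0.22, but only 1 was apart. The 73 nuclear-encoded respiratory chain and ATP synthase genes had a median of -0.25, with 72 negative and 13 apart and lower. Uqcrb, a complex III subunit, gave 88.9 to 131 CPM in the low set and 75.1 to 88.1 CPM in the high set, a difference of -0.51. Mitochondrial ribosomal proteins had a median of -0.17 over 74 genes, with 11 apart and lower and 1 apart and higher. Proteasome subunits had a median of -0.17 over 31, with 8 apart and lower. None of these genes was counted, because none reached a difference of 1. In SS against C, edgeR called 53 of the 75 ribosomal genes and 35 of the 73 respiratory genes lower, against 4.63% of all genes, and none higher. The ribosomal list was uneven within both sets: its median over the mean of the low set was 0.16 in C 8 and in C 12, -0.08 in C 2 and -0.23 in SS 18, and 0.08 in SER 19, -0.22 in SES 12, -0.43 in SS 19 and -0.29 in SS 21. In the 9 stress-exposed libraries alone the respiratory median was -0.03.

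**Figure D4:**
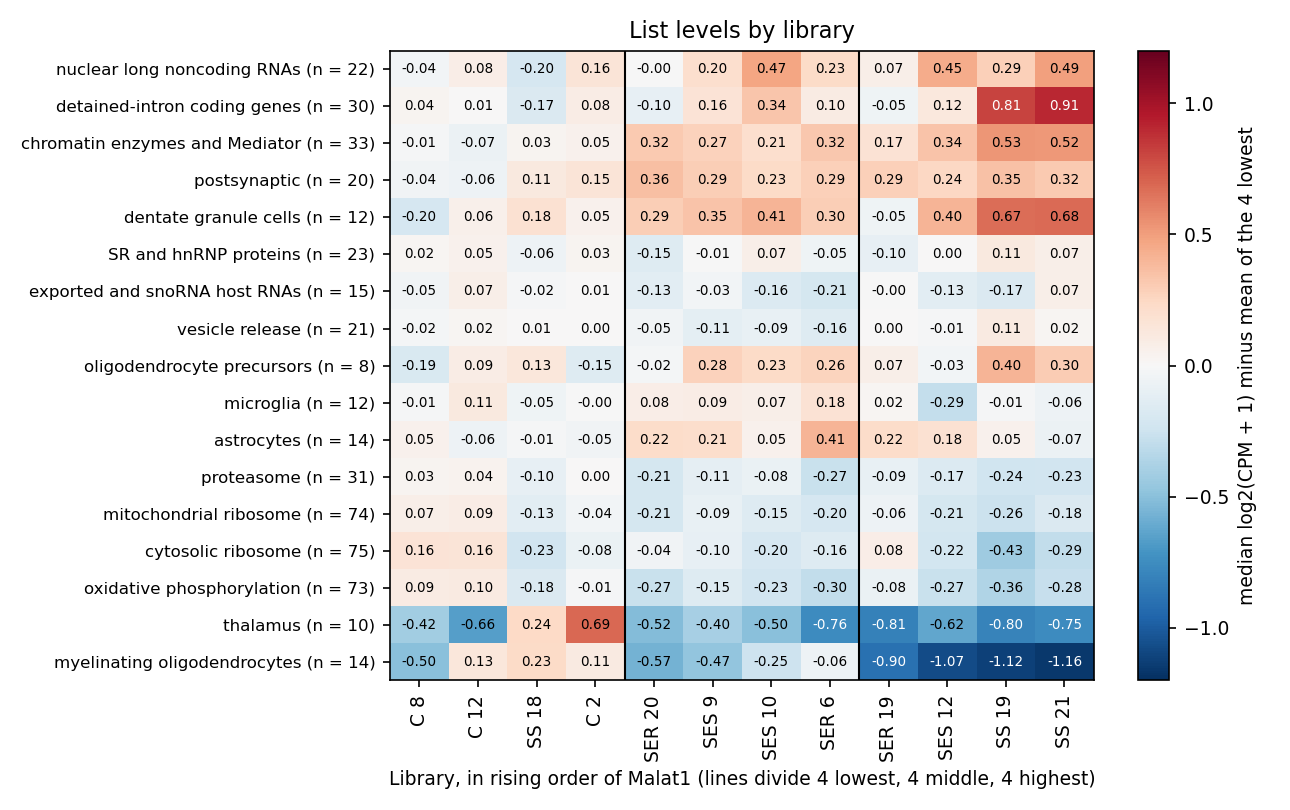
Median of log2(CPM + 1) over the members of 17 gene lists in each library, as the difference from the mean of the 4 lowest; n is the number of members, columns are in rising order of Malat1 and vertical lines divide the sets. Detained-intron genes are at 0.81 and 0.91 in SS 19 and SS 21 and at -0.05 in SER 19, and myelinating oligodendrocyte genes are between -0.90 and -1.16 in the 4 highest.

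Neuronal lists split. Postsynaptic scaffolds and glutamate receptors were higher, with a median of 0.27 over 20 members and 6 apart and higher. Gria1, an AMPA receptor subunit, gave 585 to 892 CPM against 946 to 1082 CPM. The postsynaptic median was 0.03 in the 9 stress-exposed libraries alone. Vesicle release genes had a median of 0.03 over 21, with Unc13a, a priming factor, apart and higher at 0.51 and Snap25, a fusion protein, apart and lower at -0.34. Calcium sensors had a median of -0.02 over 14, and Vsnl1, one of them, was apart and lower at -0.54. Transcripts carried into dendrites had a median of 0.19 over 16. Only Dlg4, the scaffold PSD-95, was apart and higher among them, which is near the 6.75% of all genes. The median of the dendritic list over the mean of the low set was 0.33 in SER 19 and 0.21 in SES 12. It was only 0.11 in SS 19 and 0.05 in SS 21, against 0.10 in C 12 and 0.23 to 0.41 in the middle libraries.

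Dentate granule cell markers had a median of 0.45 over 12, with 11 positive and 2 apart and higher. Glis3, a zinc-finger factor, gave 6.77 to 8.92 CPM against 9.63 to 20.9 CPM. Their list median was 0.67 in SS 19 and 0.68 in SS 21 but -0.05 in SER 19. Over 9 genes of CA1 and subiculum the median was 0.10, and over 10 of CA2 and CA3 it was -0.09. Activity-induced genes had a median of 0.20 over 20, with 4 apart and higher. That list was out of Malat1 order. Its median over the mean of the low set was 0.31 in C 8, -0.04 in SER 19, 0.40 in SES 12, 0.20 in SS 19 and 0.31 in SS 21. The middle libraries SER 6 and SER 20 were the highest, at 0.45 and 0.44. Egr2, an activity-induced zinc-finger factor, was counted at 1.08, with 0.754 to 2.21 CPM against 2.60 to 4.64 CPM, and SER 20, a middle library, was the highest of all at 7.51 CPM.

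Astrocyte and microglia markers did not move together with either side. Astrocyte markers had a median of 0.12 over 14, and Aqp4, the water channel of astrocyte endfeet, was the only one apart, at -0.56. Microglia markers had a median of -0.06 over 12, and Csf1r, their growth factor receptor, was the only one apart, at 0.33. Endothelial and mural markers had a median of -0.11 over 12, with Rgs5, a pericyte marker, apart and lower at -0.67. Interneuron markers had a median of 0.09 over 13, with Reln, Htr3a and Sst apart and higher. Over all genes 6.75% were apart and higher and 5.49% apart and lower, so nothing is read from the 1 apart gene in each of the other lists.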

How the data were processed

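The authors deposited 1 table per mouse with expected counts, whole-number estimates for 33299 RefSeq transcripts under 23183 symbols, not normalized. Per the submitters' processing notes, TopHat and mm10 were used. How reads were counted, with which strand setting and which annotation, is not given in the sources used here. Reads of overlapping, antisense or near-identical genes may therefore be shared. Rounding changed no value.

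Counts were summed per symbol, and CPM used the full library total. filterByExpr left 14541 genes. The sets of 4 were compared on log2(CPM + 1) without a test. Study groups were tested with edgeR 4.0.16 (R 4.3.3), by its quasi-likelihood test in 1 fit of all 12 libraries with TMM factors of 0.970 to 1.04 and 8 residual degrees of freedom. P-values were Benjamini-Hochberg adjusted over all genes, and calls were made under 0.05. The biological coefficient of variation was 15.7%. DESeq2 1.42.0 and limma 3.58.1 served as alternatives, and the tests were checked on simulated data. Replicates are separate mice, numbered in the titles.

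The libraries, gene lists and tests were chosen with earlier results of these data known. Named genes were Malat1, all measured nuclear noncoding RNAs, the 15 largest differences per direction with a mean of at least 10 CPM and sets apart (predicted symbols left out), up to 4 members of each other list by size of difference, and up to 8 genes by change in noncoding share. Other named genes were chosen after their values were seen. Some genes that the rule names are not reported here. Of 31 lists, those not described above had these medians: polyadenylated replacement histones -0.09, cell stress genes -0.10, ependymal genes -0.20, meningeal genes -0.18, striatal and amygdala genes 0.02 and, from 1 blood gene, -0.87. The floor for a 0 is 3 counts and covers counting error only. Coordinates and transcript features are from RefSeq and GENCODE M21 tables of the same build.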

Additional observations from a re-analysis of the deposited data

How the results depend on the processing

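Scaling moved little: TMM scaling gave 81 genes higher and 24 lower, and the total without the 10 most abundant genes gave 78 and 24. A filter cannot change the difference of a gene, only which genes are considered. With no filter and with a stricter filter the counts were 82 and 21, as in the main comparison. The size of the sets mattered. With 3 against 3 libraries 254 genes were higher. With 6 against 6 there were 5, Malat1, Col6a4, Srrm4os, 4930470H14Rik and Gm17644, and 1 lower, Slc17a6. There the chromatin list median was 0.24 and that of oligodendrocytes -0.57. A pseudocount of 0.25, which shrinks low genes less by construction, gave 126 higher and 39 lower. Removing study group means left 2 higher, Trh and Erdr1, and 0 lower, with list medians of 0.18 for chromatin, -0.023 for respiratory and -0.67 for oligodendrocyte genes. That alternative takes out all of the difference carried by C, since all 3 C libraries are in the low set. Without SS 19 and SS 21, 22 genes were higher and 7 lower, with medians of 0.094 for detained-intron and -0.58 for oligodendrocyte genes. The 9 stress-exposed libraries alone gave 4 and 4, with 0.20 for chromatin, -0.031 for respiratory and -0.78 for oligodendrocyte genes. Without C 2 and SS 18 there were 9 and 6, with -0.73 for oligodendrocyte genes. Leaving out 1 library at a time gave 33 to 104 higher and 8 to 21 lower, and oligodendrocyte medians from -1.03 to -0.75. Leaving out a middle library changes neither set, so those runs repeat the main counts of 82 and 21. The causes of these shifts were not tested. Genes with under about 10 CPM rest on few counts at these depths.

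Malat1 in SS against C stayed positive in every alternative run but was not called by edgeR on transcripts as deposited (2.92, adjusted p = 0.0693) or in the fit of the 2 groups alone (2.92, adjusted p = 0.105). Without single mice it ran from 2.35 to 3.42. It was not called without C 8, C 12, SS 19 or SS 21, with edgeR adjusted p of 0.0920, 0.0609, 0.124 and 0.0851. Malat1 in SES against SS ran from -1.61 to -0.53, and Malat1 in SER against SS from -1.80 to -0.73. Both were called by edgeR without SS 18, with adjusted p of 0.0032 and 0.000766. Malat1 in SES against SER ran from -0.076 to 0.38 and changed sign without SES 12. In SES against SS edgeR called 0 genes, against 13 with DESeq2, 0 with limma-voom and 1310 at an unadjusted p under 0.05. In SER against SS edgeR called 7, DESeq2 538 and limma-voom 8, and in SS against C 1430, 2219 and 1209; with transcripts as deposited edgeR called 2 transcripts there. Of 3586 values of 156 named genes under the alternatives, 3213 stayed within 1 SD of the value reported, and no counted gene changed sign. These totals include runs that could not move a gene: the other filters, and leaving out any of the 4 middle libraries. Those runs keep both the CPM and the sets, so the totals overstate how stable the values are. No paired analysis was possible because the groups compared hold separate mice, even where a mouse number is shared.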

Other observations

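Several families were looked at after their members were seen among the counted genes, so the counts are descriptions without a test. Of 37 collagen chains with enough counts, 7 were counted higher and 30 were positive, with a median of 0.51 on the log2 scale. Over all genes 0.564% were counted higher, but the family was picked because its members were among them. Col6a2, a collagen VI chain, stood at 2.12 to 3.99 CPM in the low set and at 5.61 CPM in SER 19, 7.33 CPM in SES 12, 24.8 CPM in SS 19 and 22.1 CPM in SS 21. Col4a2, a basement membrane chain, stood at 15.98 to 19.1 CPM in the low set, 19.8 CPM in SER 19, 22.5 CPM in SES 12, 72.3 CPM in SS 19 and 77.4 CPM in SS 21. The other chains counted were Col6a1, Col6a4, Col5a3, Col11a1 and Col12a1.

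The imprinted Dlk1 to Dio3 region on chromosome 12 had 6 genes with enough counts, all positive, and 3 counted higher, against 0.564% of all genes. The 3 were Dlk1, Dio3 and Meg3, and Meg3 was already named above by the size of its difference. Dlk1, a membrane ligand, gave 11.2 to 14.9 CPM in the low set and 19.7 to 33.2 CPM in the high set. Dio3, which inactivates thyroid hormone, gave 2.55 to 6.48 CPM and 7.77 to 13.4 CPM. SES 10 had 2.75 CPM of Dlk1 and 2.15 CPM of Dio3, the lowest of the 12 libraries for both, while its Meg3 was the third highest.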
